A study of Homo sapiens with 12 samples.

Results

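NF-κB is a family of dimeric transcription factors that B cells use to pass signals from surface receptors to survival and inflammatory genes. The transcripts described here are those of 41 genes of this system. These are its subunits, its inhibitors, the kinases and adaptors that lead to it, proteins that restrain it and genes grouped as its targets. They were chosen by gene symbol alone, with TNF ligands and their receptors left out. The clone 2 table lists 16848 genes and holds all 41 of them, and the clone 1 table lists 15612 genes and holds 39. BIRC3 and CCL4 were the genes not listed for clone 1.

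The libraries were made from RCH-ACV, an established human B-cell precursor acute lymphoblastic leukemia line that expresses the pre-B-cell receptor. In each of 2 clones, a dasatinib-resistant subline kept in increasing concentrations of dasatinib, up to 1 µM, was sampled beside a dasatinib-sensitive subline kept in 0.1% DMSO as the vehicle. Dasatinib blocks several tyrosine kinases, mainly those of the SRC and ABL families. Each of the 4 groups had 3 libraries of RNA isolated at separate time points, 12 libraries in all, so that each resistant line is a single clone. The level used for each gene was the mean normalized count of a clone as deposited, which covers its resistant and sensitive libraries together. These values carry no error, and no difference between resistant and sensitive cells is reported here, because the columns that hold it are the authors' own comparisons and were not used. In such bulk RNA, fewer expressing cells and less RNA per cell cannot be told apart.

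In resting cells, inhibitors of the IκB family hold NF-κB dimers in the cytoplasm. In the canonical route, an IκB kinase complex marks these inhibitors for degradation and frees dimers such as RELA with the p50 product of NFKB1. In the noncanonical route, the kinase NIK, encoded by MAP3K14, drives processing of the NFKB2 product and yields dimers with RELB. Antigen receptors of B cells reach the canonical route through the adaptors BCL10 and MALT1, and the SRC family kinases that dasatinib blocks act near the start of that chain.

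The cells transcribed most of the system at moderate levels. In clone 2, 34 of 41 members had a mean normalized count of at least 100, and in clone 1 this held for 31 of 39, against 67.5% and 70.2% of all listed genes. With a minimum of 10 there were 38 members in each clone, against 84.8% of all listed genes in clone 2 and 89.6% in clone 1. At least 1000 was reached by 12 genes in clone 2 and 8 in clone 1, against 32.5% and 28.4% of all listed genes. The members had a median of 645 for clone 2 and of 502.0 for clone 1, compared with medians of 442 and 406 over all genes of those tables. The median member stood above 57.6% of the genes of the clone 2 table and above 54.4% of those of the clone 1 table. SQSTM1 had the largest count of the members, at 2925 in clone 2 and 2185 in clone 1, and the chemokine and BIRC3 transcripts were close to the lower limit of the tables. The tables listed no gene below 1.13 in clone 2 and 2.52 in clone 1, so that a gene not listed may still have had reads.

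**Figure D1:**
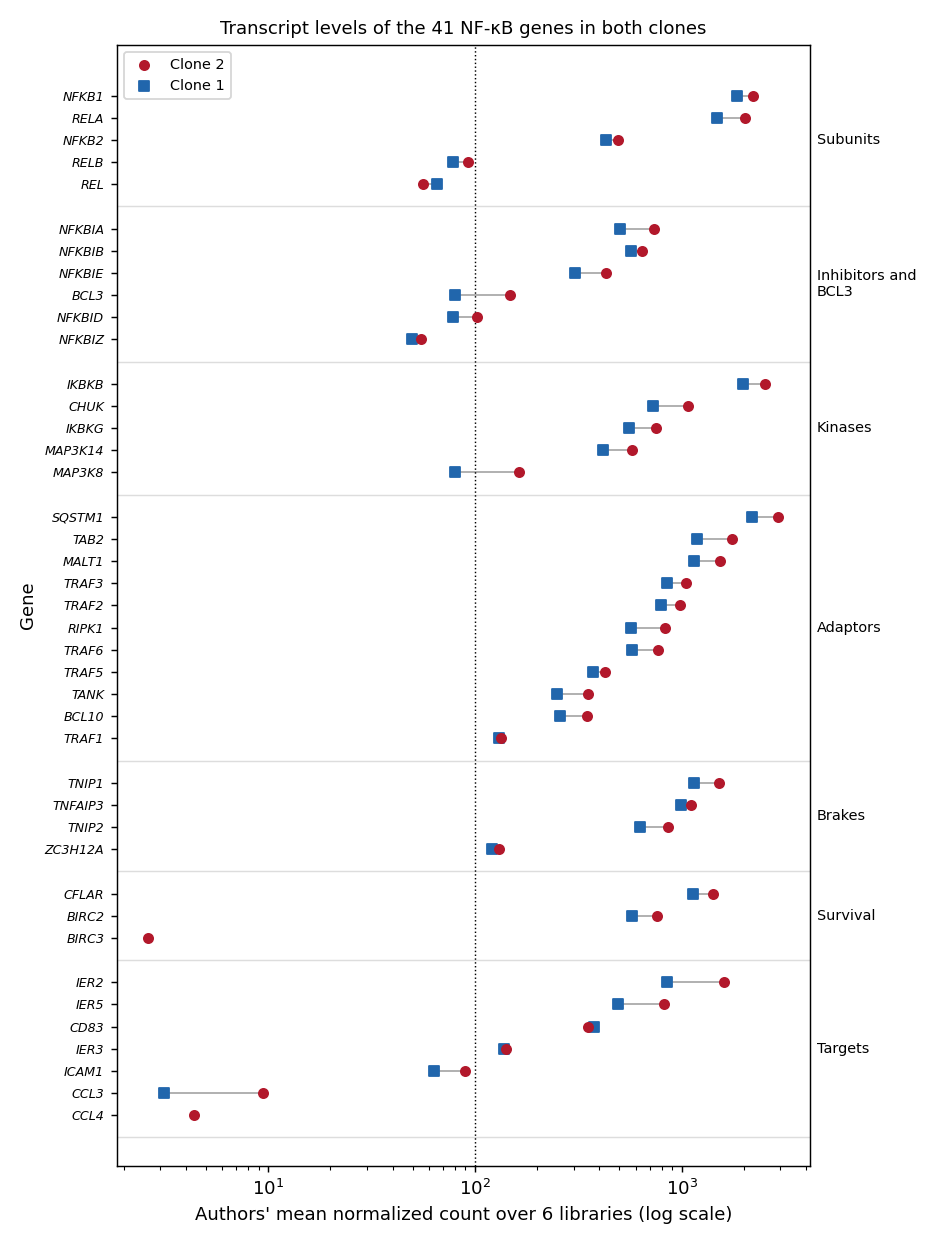
Authors' mean normalized count over 6 libraries (x axis, log scale) for the 41 genes (y axis), grouped by role, with clone 2 as red circles, clone 1 as blue squares and a dotted line at 100. SQSTM1 is farthest right at 2925 and 2185, and BIRC3 (2.63) and CCL4 (4.36) have a clone 2 point only.

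The cells carried most markers of their label, and some genes of other cell types were listed too. Of 12 genes of precursor B cells, 11 had a mean normalized count of at least 1000 in both clones, with a median of 6224 in clone 2 and 4502 in clone 1. Among all listed genes, 32.5% in clone 2 and 28.4% in clone 1 reached 1000. MME was the precursor gene below it, at 67.0 in clone 2 and 67.7 in clone 1. Among genes of mature B or plasma cells, MS4A1 was at 1598 in clone 2 and 820 in clone 1. SDC1 was at 631 and 317 and CD27 at 196 and 128 in clones 2 and 1, and FCER2 was not listed. CD3E, CD3D, CD2 and TRAC, which define T cells, were not listed in either table. Of the 4 myeloid genes, LYZ, CD14 and MPO stayed at or below 17.1 in both clones, whereas CSF1R was at 768 in clone 2 and 615 in clone 1. Of the other genes, NKG7 was at 208 in clone 2 and 192 in clone 1, and COL1A1 was at 214 in clone 2 and 145 in clone 1, while GNLY, COL1A2 and DCN were not listed.

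The promoters of these genes were searched for the recognition sequence of NF-κB, and matches are shown because feedback on its own genes is a known feature of the system. RefSeq start windows on GRCh38.p14, from 250 bases before to 50 bases after each gene start, were found for 36 of the 41 genes. RELB, NFKBIE, IKBKB, IER3 and CCL4 had none. The NF-κB consensus searched had 10 letters: GGG, A or G, any 2 letters, C or T at 2 positions, and CC. A match on either strand was present in at least 1 window of 17 of the 36 genes (47.2%). This held for 13.3% of all 27305 genes with a window and 17.0% of those listed in the tables. Counted by window, 22 of 67 windows of these genes held a match, against 11.3% of all 35116 windows. All 5 inhibitor genes with a window, BCL3 included, had a match, as did 3 of 4 subunit genes, 2 of 4 genes for brakes, 2 of 3 survival genes, 3 of 11 adaptors, 1 of 4 kinases and 1 of 5 targets. The 36 genes had more windows per gene than all genes did, and counting any window favours them. In the first listed window alone, a setting chosen after seeing the data, 11 of the 36 genes (30.6%) had a match. This share was 10.8% over all genes. A match is a run of letters and not a measured binding site. In these counts, a gene or window with several or overlapping matches was counted once.

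The 8 genes with a match and the largest mean normalized counts are shown with 10 bases on either side, read along the gene's own strand, with the match in capitals.
NFKB1: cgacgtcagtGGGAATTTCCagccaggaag
TAB2: gtggcggagaGGGAGGCCCCccgagtcccc
TNIP1: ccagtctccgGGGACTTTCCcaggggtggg
CFLAR: cgcggggggcGGGGAATTCCgcagacagga
TNFAIP3: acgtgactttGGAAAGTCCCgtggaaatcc
TRAF3: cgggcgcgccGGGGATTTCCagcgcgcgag
NFKBIA: tgactggcttGGAAATTCCCcgagcctgac
NFKBIB: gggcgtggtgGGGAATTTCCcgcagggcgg

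The stretches lie on GRCh38.p14 at chr4:102501300-102501329 (plus strand) for NFKB1, chr6:149318188-149318217 (plus) for TAB2, chr5:151081057-151081086 (minus) for TNIP1 and chr2:201118609-201118638 (plus) for CFLAR. Those of TNFAIP3 and TRAF3 lie at chr6:137867182-137867211 (plus) and chr14:102777406-102777435 (plus). Those of NFKBIA and NFKBIB lie at chr14:35404811-35404840 (minus) and chr19:38899931-38899960 (plus). Read along the strand that holds the match, 3 of the 8 (NFKB1, NFKBIA and NFKBIB) share the same 10 letters, and TNIP1 and TNFAIP3 share another run of 10. In TNFAIP3 and NFKBIA the match runs against the gene, so its reverse complement is in capitals. The matches of NFKB1, TNIP1, TRAF3 and NFKBIB begin 49, 42, 33 and 28 bases before the gene start of their window. Those of TAB2, CFLAR, TNFAIP3 and NFKBIA begin 102, 97, 67 and 81 bases before it. TNIP1, TAB2 and NFKBIB each had 2 windows, and the one listed first held no match. The matches shown are the first of a window. TAB2 has others at positions -101 and 12 relative to the start, and NFKBIB at -27 and 38. Those at -101 and -27 overlap the first match of their gene and are not separate stretches. TNFAIP3 has another at -55, where the second match begins within the lower-case bases that follow the capitals.

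**Figure D2:**
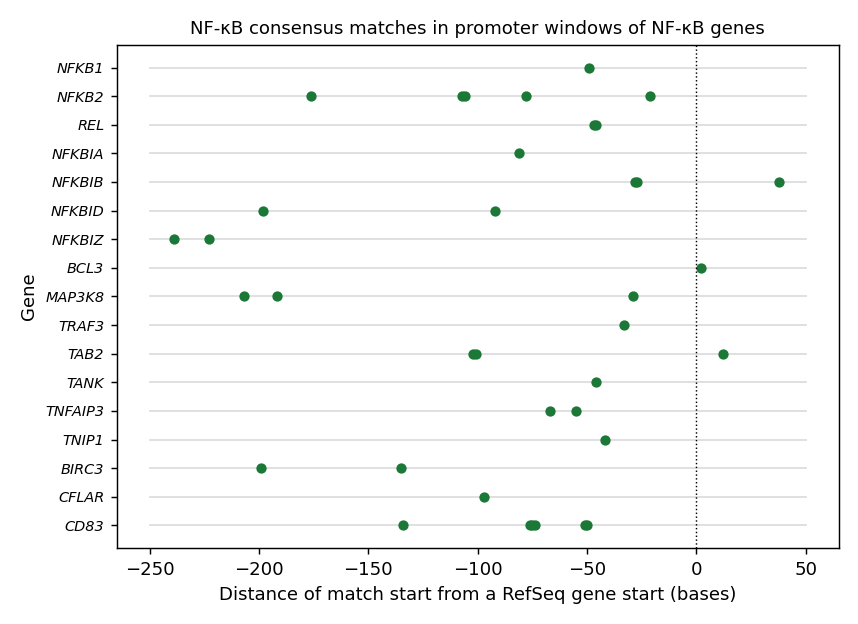
Positions of matches to the NF-κB consensus (green points) relative to a RefSeq gene start (x axis, bases, dotted line at the start) for the 17 genes with a match (y axis); grey lines span the windows of 250 bases before to 50 bases after a start, overlaid where a gene has several, so that a match in overlapping windows appears more than once. CD83 has the largest number of match positions, at 6, and NFKB2 has 5, with overlapping matches counted separately.

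Among the 5 subunits, the transcripts of the canonical pair had the highest levels. RELA, which carries a transactivation domain, had 2017 mean normalized counts in clone 2 and 1475 in clone 1. NFKB1, the source of p50, had 2206 in clone 2 and 1851 in clone 1. NFKB2, whose product p100 is processed to p52, had 493 in clone 2 and 432 in clone 1. The remaining subunits, both with known roles in lymphocytes, were low: RELB had 92.8 in clone 2 and 78.0 in clone 1, and REL, which encodes c-Rel, had 56.3 in clone 2 and 65.8 in clone 1. Levels of different genes were compared per kilobase of coding length, since longer transcripts give more reads. On that scale RELA led with 1220 in clone 2 and 893 in clone 1, followed by NFKB1 with 759 and 637 and by NFKB2 with 182 and 160 in clones 2 and 1. RELA stood 1.61-fold above NFKB1 in clone 2 and 1.40-fold in clone 1. Without the length correction the order of RELA and NFKB1 turns, to ratios of 0.914 in clone 2 and 0.797 in clone 1. RELB and REL ended the order in both clones. NFKB2 stood 3.41-fold above RELB in clone 2 and 3.57-fold in clone 1, and RELA stood 40.2-fold above REL in clone 2 and 25.2-fold in clone 1. Per kilobase of full transcript length RELA over REL was 149 in clone 2 and 93.5 in clone 1, so that the size of this gap depends on the length used.

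The inhibitors were led by the classical IκB genes, and the nuclear members were scarce. NFKBIA, which encodes IκBα and is itself induced by NF-κB, had 735 mean normalized counts in clone 2 and 502 in clone 1. NFKBIB, the gene of IκBβ, had 645 in clone 2 and 569 in clone 1. NFKBIE, the gene of IκBε, had 429 in clone 2 and 305 in clone 1. Per kilobase of coding length, the ratio of NFKBIA to NFKBIB was 1.28 in clone 2 and 0.992 in clone 1. Per full transcript length it was 0.848 in clone 2 and 0.657 in clone 1, so the order of these genes in clone 2 turns with the length used. The atypical members bind NF-κB in the nucleus. BCL3 had 147 in clone 2 and 79.8 in clone 1, NFKBID had 103 in clone 2 and 78.0 in clone 1, and NFKBIZ had 54.8 in clone 2 and 49.4 in clone 1. Per kilobase, NFKBIA exceeded NFKBIZ 30.4-fold in clone 2 and 23.0-fold in clone 1, and without a length correction 13.4-fold in clone 2 and 10.2-fold in clone 1.

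The IκB kinase complex was transcribed in full. IKBKB, the catalytic subunit of the canonical route, had 2531 mean normalized counts in clone 2 and 1975 in clone 1. CHUK, the gene of the other catalytic subunit IKKα, had 1076 in clone 2 and 726 in clone 1. IKBKG, which encodes the regulatory subunit NEMO, had 749 in clone 2 and 559 in clone 1. Per kilobase of coding length, IKBKB stood 2.32-fold above CHUK in clone 2 and 2.68-fold in clone 1, and 2.18-fold above IKBKG in clone 2 and 2.28-fold in clone 1. Without a length correction IKBKB over IKBKG was 3.38 in clone 2 and 3.53 in clone 1. IKBKG has a pseudogene copy, IKBKGP1, which was not listed, and reads of the copy may have been counted with either. MAP3K14, the gene of NIK, had 577 in clone 2 and 418 in clone 1. MAP3K8, the gene of the kinase TPL2 that p105 holds inactive, had 163 in clone 2 and 79.8 in clone 1.

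**Figure D3:**
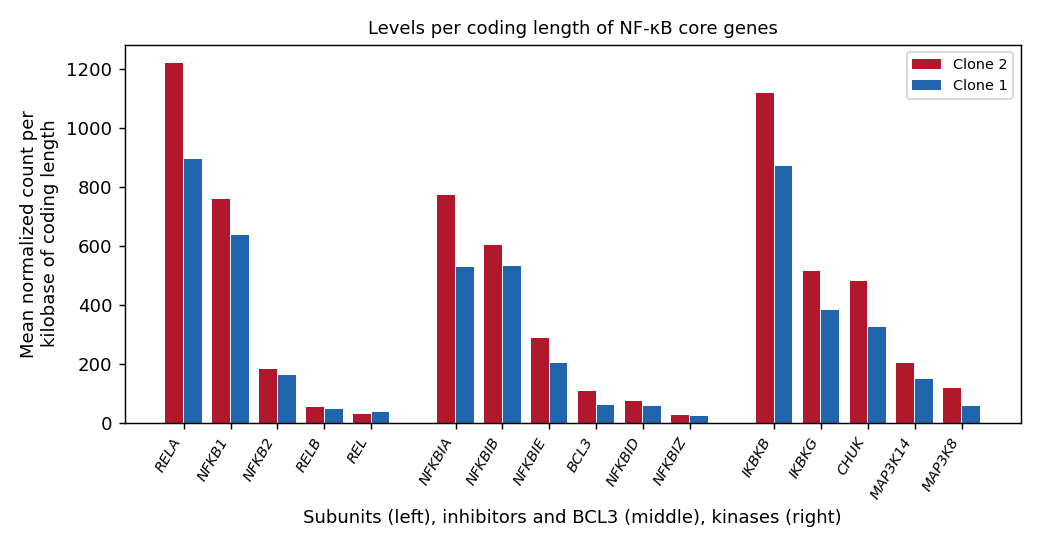
Mean normalized count per kilobase of coding length (y axis) in clone 2 (red) and clone 1 (blue) for subunits (left), inhibitors with BCL3 (middle) and kinases (right); the bars are single deposited means divided by a length and have no error. RELA reaches 1220 and 893, IKBKB 1116 and 871, and REL stays at 30.3 and 35.4 in clones 2 and 1.

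Of the 11 adaptors, all had at least 100 mean normalized counts in both clones. That level was reached by 67.5% of all listed genes in clone 2 and 70.2% in clone 1. The adaptors lay between 134 and 2925 in clone 2 and between 130 and 2185 in clone 1. SQSTM1, which encodes the scaffold p62, was the highest, and TAB2, which links TRAF6 to the kinase TAK1, followed at 1747 in clone 2 and 1184 in clone 1. MALT1, the paracaspase of the antigen receptor route, had 1537 in clone 2 and 1147 in clone 1. BCL10, its partner, had 348 in clone 2 and 258 in clone 1, and per kilobase of coding length the pair stood closer, at 622 for MALT1 and 497 for BCL10 in clone 2. TRAF2 and TRAF3, which with BIRC2 keep NIK low in unstimulated cells, had 982 and 1045 in clone 2 and 792 and 851 in clone 1. TRAF6 had 772 in clone 2 and 572 in clone 1, RIPK1, a kinase of the TNF receptor complex, had 834 in clone 2 and 566 in clone 1, and TRAF5 had 427 in clone 2 and 371 in clone 1. TANK, a binding partner of TRAF proteins, had 351 in clone 2 and 249 in clone 1. TRAF1, a known NF-κB target, was the lowest adaptor at 134 in clone 2 and 130 in clone 1. TRAF2 exceeded it per kilobase of coding length 6.07-fold in clone 2 and 5.05-fold in clone 1, and per kilobase of full transcript 20.4-fold in clone 2 and 17.0-fold in clone 1.

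The brakes on the pathway were mostly well transcribed. TNFAIP3, the gene of the ubiquitin-editing enzyme A20, had 1109 mean normalized counts in clone 2 and 994 in clone 1. Its binding partners TNIP1 and TNIP2 had 1520 and 855 in clone 2 and 1140 and 629 in clone 1. ZC3H12A, an RNase that degrades inflammatory transcripts, had 130.1 in clone 2 and 121 in clone 1. The survival genes split apart. CFLAR, which encodes the caspase-8 inhibitor FLIP, had 1420 in clone 2 and 1133 in clone 1, and BIRC2, the gene of cIAP1, had 759 in clone 2 and 573 in clone 1. BIRC3, the gene of cIAP2 and a known NF-κB target, had 2.63 in clone 2 and was not listed in clone 1. Per kilobase of coding length BIRC2 exceeded BIRC3 by 282-fold in clone 2, a ratio that rests on the BIRC3 mean of 2.63.

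The genes grouped as targets ranged widely, and whether NF-κB drives them in these cells was not tested. IER2, an immediate early gene, had 1598 mean normalized counts in clone 2 and 852 in clone 1. IER5, of the same group, had 817 in clone 2 and 492 in clone 1, while IER3 had 141 in clone 2 and 138 in clone 1. Per kilobase of coding length IER2 was the highest of all members in clone 2, at 2388, and came second to SQSTM1 in clone 1, at 1274. Per full transcript length it was below SQSTM1 in both clones, with ratios of 0.556 in clone 2 and 0.397 in clone 1. CD83, a surface marker of activated B cells, had 354 in clone 2 and 377 in clone 1. ICAM1, an adhesion molecule, had 89.9 in clone 2 and 63.5 in clone 1. The chemokines were near the floor: CCL3 had 9.48 in clone 2 and 3.15 in clone 1, and CCL4 had 4.36 in clone 2 and was not listed in clone 1. Near-identical copies share these reads. In clone 2, CCL3L1 and CCL3L3 were listed with the same mean of 2.48 and CCL4L1 with 4.27, and none of them was listed in clone 1, so the chemokine values are uncertain.

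Levels in the clones were then set side by side, after each table was scaled to the same sum over the 15563 genes that both list. The tables were normalized separately, and a clone 2 value as deposited was larger by 0.36 on the log2 scale for the median shared gene. With 1 mean per clone no test was possible, and the ratios mix resistant and sensitive cells. The library titles carry an A in the run label of every clone 1 library and a B in that of every clone 2 library, so clone and run label cannot be told apart. Of 39 members, 23 were above 0 (59.0%, against 51.3% of all shared genes), and the median log2 ratio of clone 2 over clone 1 was 0.06, against 0.00 for all shared genes. A log2 ratio above 0.5 was found for 4 members (10.3%), against 4.72% of the shared genes, and below -0.5 for 1 member, against 4.83%. Among the 11873 shared genes with at least 50 in both clones, these shares were 2% and 1.71%. At that minimum, BCL3, IER2 and MAP3K8 were the 3 members above 0.5, and REL was the 1 below -0.5. Without the minimum, the 4 higher in clone 2 were MAP3K8 at 0.66, IER2 at 0.54, BCL3 at 0.52 and CCL3 at 1.03 on the log2 scale. The CCL3 counts were too low to judge. REL, at -0.58, was the member below -0.5, and CD83 came next at -0.45. MAP3K8 was 1.58-fold higher in clone 2, IER2 1.46-fold and BCL3 1.43-fold. Of the canonical subunits and the kinase complex, RELA was at 0.09, NFKB1 at -0.11, IKBKB at 0.00, IKBKG at 0.06 and CHUK at 0.21 on the log2 scale, where the middle 50% of the shared genes ran from -0.10 to 0.11. CHUK had the largest ratio of these 5 and stood above 85.5% of the shared genes. Among the immediate early genes, IER5 was at 0.37 and IER3 at -0.33. With a pseudocount of 10 in place of 1, IER2 and MAP3K8 were the 2 members left above 0.5, against 2.87% of the shared genes. Markers of B-cell stages also differed between the clones on this scale. Of 4 genes of later stages, MS4A1 was at 0.60, SDC1 at 0.63 and CD27 at 0.25, and FCER2 was not listed in either table. The 12 precursor genes ran from -0.48 for RAG1 to 0.20 for EBF1, with a median of -0.01, and MME was at -0.37. The part of these markers in the ratios of the members was not tested.

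**Figure D4:**
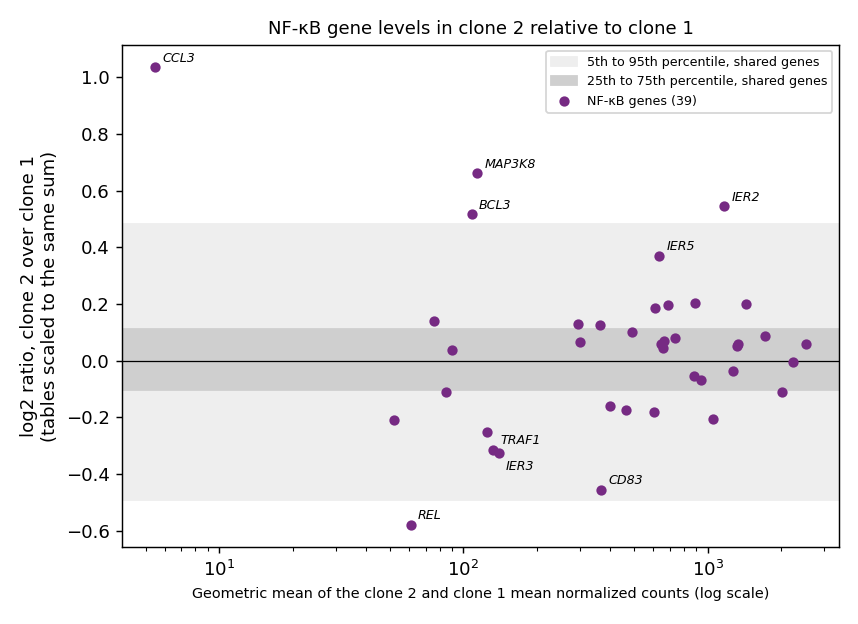
Log2 ratio of clone 2 over clone 1 after scaling both tables to the same sum (y axis) against the geometric mean of the 2 mean normalized counts (x axis, log scale) for the 39 NF-κB genes in both tables; dark and light grey bands hold the middle 50% and 90% of the 15563 shared genes. MAP3K8 (0.66), IER2 (0.54), BCL3 (0.52) and CCL3 (1.03) lie above the light band, and REL (-0.58) lies below it.

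Other genes of the pathway were transcribed throughout. Another 32 genes of NF-κB signaling were looked up, such as the linear ubiquitin ligase subunits, the IRAK kinases and the IκB ubiquitin ligase. All 32 had at least 100 mean normalized counts in both clones, against 67.5% and 70.2% of all listed genes in clones 2 and 1. At least 1000 was reached by 18 in clone 2 and 12 in clone 1, against 32.5% and 28.4% of all listed genes. The median of the 32 was 1108 in clone 2 and 790 in clone 1. IRAK1, a kinase of the Toll-like receptor route, was the highest at 5027 in clone 2 and 4396 in clone 1. TRADD, an adaptor of TNF receptors, had the highest log2 ratio of clone 2 over clone 1 among the 32, at 0.37.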

How the data were processed

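Per the labels, total RNA was column-purified and TruSeq stranded mRNA libraries were sequenced. Tools listed by the submitters' processing notes are BWA, SAMtools, Picard, FastQC, bedtools and DESeq2, with hg19 as the build, and no role is attached to any. How reads were counted, on which annotation and with which strand setting is not given in the sources used here, so overlapping and antisense genes are uncertain. Per the file headers, the signal used is the authors' baseMean of DESeq2, the average of size-factor normalized counts over all 6 libraries of a clone. The deposited log2 fold changes, standard errors, Wald statistics and p-values of resistant over sensitive cells, with a direction column, are the authors' own comparisons and were not used. The deposited means sum to 24561485 in clone 2 and 19108037 in clone 1, and the depth of each library is unknown.

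Percentiles were taken over all genes of a table. Levels per length used the longest coding sequence of GENCODE 29 (in place of the planned protein lengths, and only as a length, since its build differs from hg19), which covered all 41 members and 85.3% and 86.3% of the symbols of clones 2 and 1. Ratios used a pseudocount of 1 on 15563 shared genes, without symbols stored as dates. Promoter windows came from RefSeq (GRCh38.p14) and were searched on both strands. The ratio and motif steps were checked on simulated data. Calculations used Python 3.11.15 with pandas 2.3.3 and numpy 2.4.6. The members, lists and thresholds were chosen with earlier results of these data known. All members were named, sequences were shown for the 8 genes with a match and the highest counts, and other genes came from lists of pathway genes, cell type markers and gene copies. Alternatives covered minimums, scaling, pseudocount, length (full transcript length was added after the data were seen) and motif. No test was made, because no value per library was used.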

Additional observations from a re-analysis of the deposited data

How the results depend on the processing

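No paired analysis was possible because each clone has 1 mean per gene, and for the same reason no library could be left out. Depth per library is unknown, so the values near the lower limit of the tables (BIRC3, CCL3 and CCL4) cannot be judged. Matching older symbols added no member. With a minimum of 1000 in place of 100, 12 members in clone 2 and 8 in clone 1 remained, and with 10 there were 38 in each. The median percentile became 53.5 in clone 2 and 50.5 in clone 1 among genes with at least 10 counts, and 55.2 and 52.4 per kilobase. The log2 ratio of RELA over NFKB1 was 0.68 in clone 2 and 0.49 in clone 1 per coding length, turned to -0.13 and -0.33 without it, and was 0.47 and 0.27 with full transcript length, chosen after seeing the data. Coding length also favours genes with long untranslated ends, such as CFLAR, whose ratio to BIRC2 was 2.41 per coding length in clone 2 and 0.518 per transcript length. Unscaled tables gave a median log2 ratio of 0.42 for the members (0.36 for all shared genes), with 9 above 0.5 (20.5% of all shared genes) and 0 below -0.5 (1.9%), and a pseudocount of 10 left 2 above 0.5 (2.87%). The median ratio scaling kept the same 4 and 1. A looser pattern, GGG and CC with any 5 letters between them, was found in 36 of the 36 genes, against 61.7% of all genes, the classical κB sequence with up to 1 mismatch in 13, against 3.39%, and the consensus in the first listed window of 11, a setting chosen after seeing the data, against 10.8%.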
